A study of Mus musculus with 12 samples.

Results

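The T cell receptor (TCR) constant region genes Trac, Trbc1 and Trbc2 encode the part of the TCR alpha and beta chains that does not vary between T cells. Their chromatin was examined here as all regions of the deposited accessibility table that overlap one of these genes, or lie within 20 kb of it, in the GENCODE vM21 annotation of mm10. The rule gave 35 of the 63309 regions, each 500 bp long. Of these, 23 lie around Trac on chromosome 14 and 12 around Trbc1 and Trbc2 on chromosome 6, where the windows of the neighbouring genes share 10 regions. ATAC-seq, in which a transposase cuts open chromatin and tags it for sequencing, was carried out on iNKT1, iNKT2 and iNKT17 cells from the thymi of untreated C57BL/6 mice and Hivep3-/- mice on the C57BL/6 background, with animals 8 to 9 weeks old. Each subset and genotype had 2 libraries, making 12 in all. The subsets were sorted as CD122+ ICOS- (iNKT1), CD122- ICOS+ Izumo1r+ CD138- (iNKT2) and CD122- ICOS+ Izumo1r- CD138+ (iNKT17) cells, transposed together and sorted again by ICOS and CD138. The protocol describes pooled thymi while the sample titles number mice, so the libraries may not be single animals, and the p-values measure the spread between these libraries. The titles give the same mouse numbers to the iNKT1, iNKT2 and iNKT17 libraries of a genotype, so these may share a mouse or pool. Comparisons averaged over the subsets treat them as independent, so their standard errors and p-values may be too small. In the main fit the comparisons between subsets and the interaction tests also take these libraries as independent. The Hivep3-/- mice were a backcrossed line and the C57BL/6 mice were purchased, so the deletion and any other difference between the lines cannot be told apart.

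During their development T cells join V, D and J segments in the DNA of the TCR loci, and the joined segments are transcribed together with a constant region. Invariant natural killer T (iNKT) cells of the mouse carry a nearly fixed alpha chain that joins the segment Trav11 to Traj18, paired with a limited set of beta chains. Transcription and recombination of the alpha locus depend on the enhancer Eα, a few kilobases 3′ of Trac, and those of the beta locus on Eβ, between Trbc2 and Trbv31. HIVEP3 belongs to a family of large zinc-finger proteins known for binding κB-like sequences, and was first described for binding the recombination signals of antigen receptor genes. Joining also deletes the DNA between the segments, so at regions among the D and J segments a change of accessibility and a change in the number of DNA copies cannot be told apart. Nor can a larger share of open cells and a more open region in each cell.

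Trac (ENSMUSG00000076928.5) lies on the forward strand at chr14:54220521-54224206, Trbc1 (ENSMUSG00000076490.6) at chr6:41538218-41539881 and Trbc2 (ENSMUSG00000076498.2) at chr6:41546730-41548352. Printed below are the first 300 bases, or for the last pair 300 bases from position 201, of 6 regions on which the results turn, read 5′ to 3′ from the forward strand of the GRCm38.p6 genome. Capitals mark short motifs found on either strand. The motif of Runx factors was searched as TGTGGT and that of Ets factors as AGGAAG. Factors of the TCF/LEF family were given the letters TCAAAG and GATA factors the letters AGATAA. The κB-like motif of NF-kB was searched as GGNNTTTCC, the heptamer of a recombination signal as CACAGTG and, marked in the first sequence only, the cAMP response element as TGACGTCA. In the first sequence the κB-like motif and the heptamer were not marked. The Eα region (chr14:54227442-54227941) was taken as the enhancer from its place 3.24 kb beyond the end of Trac and from its cAMP response element at position 39 and TCF/LEF letters at position 76, motifs known from Eα. It stands first because it is the reference point of the locus, with similar values in both genotypes.
Eα region: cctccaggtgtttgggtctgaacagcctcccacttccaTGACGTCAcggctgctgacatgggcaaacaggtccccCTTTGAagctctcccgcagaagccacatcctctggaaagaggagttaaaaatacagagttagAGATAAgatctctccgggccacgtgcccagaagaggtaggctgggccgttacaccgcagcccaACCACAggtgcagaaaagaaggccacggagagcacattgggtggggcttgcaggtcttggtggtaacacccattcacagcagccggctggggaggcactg
The region that begins 87 bp after the end of Trac (chr14:54224293-54224792), called the 3′ flank below, is shown because it differed most between the genotypes.
Trac 3′ flank: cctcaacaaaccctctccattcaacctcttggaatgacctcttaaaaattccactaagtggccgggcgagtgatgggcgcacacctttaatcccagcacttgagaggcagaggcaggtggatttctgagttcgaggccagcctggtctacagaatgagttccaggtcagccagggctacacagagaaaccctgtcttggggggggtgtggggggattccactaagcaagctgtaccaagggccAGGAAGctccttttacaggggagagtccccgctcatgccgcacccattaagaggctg
The region over the pseudogene segment Traj1 (chr14:54218706-54219205), between the J segments and Trac, is shown because it differed most between the genotypes in iNKT2 cells.
Traj1 region: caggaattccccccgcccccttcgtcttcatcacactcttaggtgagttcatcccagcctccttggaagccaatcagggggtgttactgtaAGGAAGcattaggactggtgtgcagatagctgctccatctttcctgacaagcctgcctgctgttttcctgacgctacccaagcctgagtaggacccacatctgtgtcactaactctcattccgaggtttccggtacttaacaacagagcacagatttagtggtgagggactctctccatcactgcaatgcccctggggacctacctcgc
The Eβ region (chr6:41554287-41554786), 5.94 kb beyond Trbc2, was taken as the beta enhancer from its place and its Runx letters at positions 178 and 260, and is shown as the counterpart of Eα.
Eβ region: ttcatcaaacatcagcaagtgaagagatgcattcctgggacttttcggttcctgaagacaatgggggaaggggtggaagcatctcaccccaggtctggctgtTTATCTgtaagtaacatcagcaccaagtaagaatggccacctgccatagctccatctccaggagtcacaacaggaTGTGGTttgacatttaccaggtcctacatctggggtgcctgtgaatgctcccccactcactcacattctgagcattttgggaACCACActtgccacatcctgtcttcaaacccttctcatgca
The region before Trbd1 (chr6:41532563-41533062) is shown because it holds a κB-like sequence next to the first D segment.
Trbd1 upstream region: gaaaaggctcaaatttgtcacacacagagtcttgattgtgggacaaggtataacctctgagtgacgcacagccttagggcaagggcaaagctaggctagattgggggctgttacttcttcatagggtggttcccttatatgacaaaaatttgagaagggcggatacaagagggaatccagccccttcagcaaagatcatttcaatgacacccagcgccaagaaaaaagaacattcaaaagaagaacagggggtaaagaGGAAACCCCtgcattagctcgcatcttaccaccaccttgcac
The region 723 bp beyond Trbc2 (chr6:41549075-41549574) is shown because it separated the subsets.
Trbc2 3′ flank: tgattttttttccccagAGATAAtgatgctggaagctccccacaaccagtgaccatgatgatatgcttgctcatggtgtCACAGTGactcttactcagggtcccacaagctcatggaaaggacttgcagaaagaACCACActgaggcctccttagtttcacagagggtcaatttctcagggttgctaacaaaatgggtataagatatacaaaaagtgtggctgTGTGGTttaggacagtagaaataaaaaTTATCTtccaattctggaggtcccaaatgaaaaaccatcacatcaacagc

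The loci were open in a few strong peaks, on the linear scale of normalized insertions per kb. In the mean over the 12 libraries the regions around Trac ranged from 14.4 to 246, with a median of 39.2, and those around the beta genes from 2.90 to 141, with a median of 15.5. The strongest lay within intron 2 of Trac (chr14:54222260-54222759), above 99.7% of all regions of the table, followed by the Eα region with 206 and a region 849 bp beyond Trac (chr14:54225055-54225554) with 165. The Eβ region was the strongest of the beta locus and held 38.7% of the summed value of its 12 regions. Only 1 further region overlapped Trac (chr14:54221638-54222137, with exon 2), and 0 overlapped Trbc1 or Trbc2. Exon 1 of Trbc1 and Trbc2 is the same at 374 of 375 bases, and 17.5% of the 50-base words of Trbc1 recur in Trbc2. A read of 50 bp from the shared stretches has no unique place by itself. The study sequenced paired ends, so its mate may place it. How far this affects the bodies of the beta genes was not tested. Reads that cannot be placed are a limit also in repeats, and 151 of the 500 bases of the Trac 3′ flank are masked as repeats in the genome file.

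A region covered 7 of the 17 Traj segments of the Trac window, 4 of the 14 Trbj segments and 0 of the 2 Trbd segments. Traj18, the segment of the invariant chain, lies 19.7 kb before Trac with no region over it, and the next region begins 613 bp after it, over Traj17. The 11 regions 5′ of Trac had a median of 27.0 insertions per kb, against 85.8 for the 10 regions 3′ of it, and the 2 regions over the gene had means of 41.2 and 246.

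**Figure D1:**
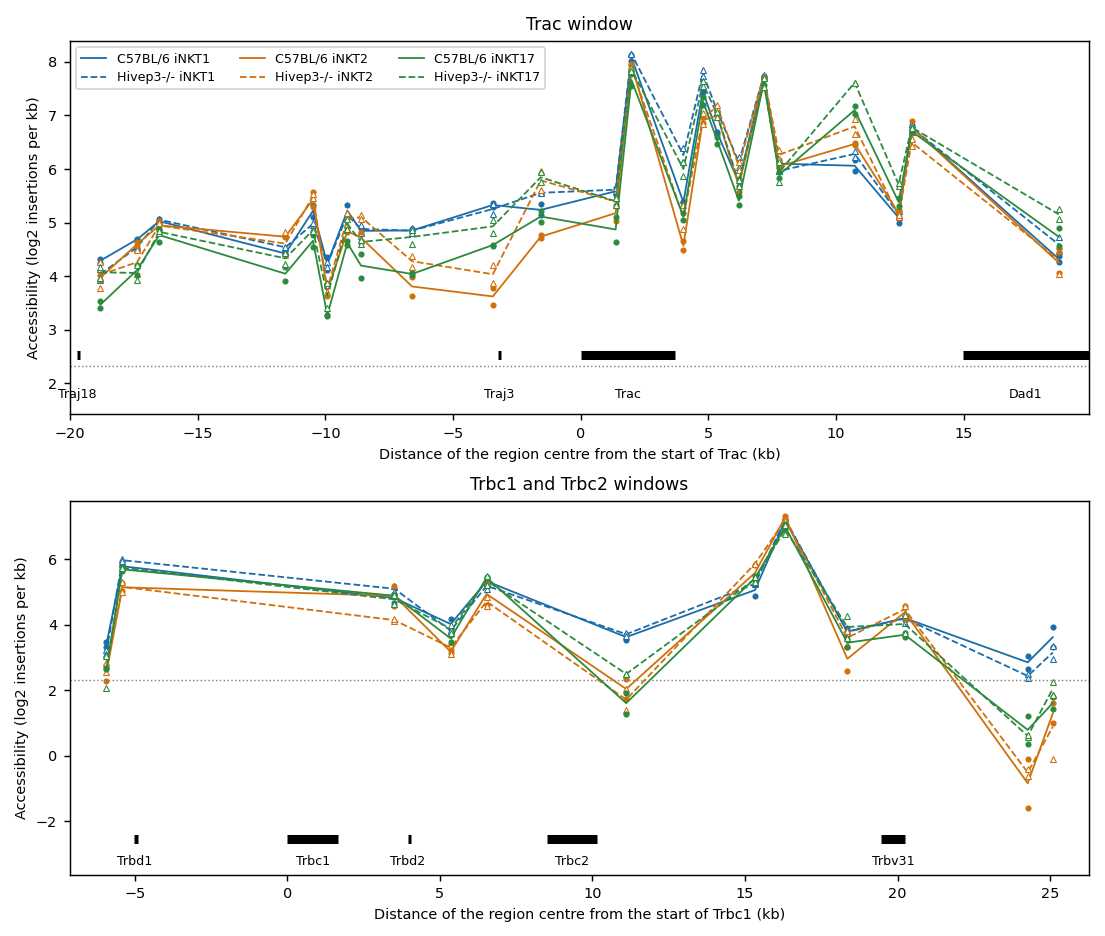
Accessibility of the 23 regions around Trac (top) and the 12 around Trbc1 and Trbc2 (bottom) in log2 insertions per kb, by distance from the start of Trac or Trbc1. Small points are libraries (filled circles C57BL/6, open triangles Hivep3-/-), lines join the group means (solid C57BL/6, dashed Hivep3-/-), colours are subsets, black bars are genes and the dotted line is the level of 5 insertions per kb. The lines run together at the Eα and Eβ peaks and part between the genotypes just 3′ of Trac and over Traj1.

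Loss of Hivep3 went with modestly higher accessibility at parts of the Trac locus, without a 3-fold change at either locus. The largest differences lay over Traj1 and just 3′ of Trac, with smaller ones over Traj5 and farther beyond the gene. Eα itself and Eβ did not pass the test in any subset. The genotypes were compared with limma over all tested regions, with Benjamini-Hochberg adjustment, once for every subset and once with the 3 subsets averaged. At the thresholds of the study (3-fold and an adjusted p under 0.1), 0 of the 35 regions were called in iNKT1, iNKT2 or iNKT17 cells or on the average, against 1.15%, 1.68%, 0.271% and 0.529% of all regions tested. At an adjusted p under 0.1 with no fold threshold, 4 of the 23 Trac regions were higher in Hivep3-/- iNKT1 cells, 5 in iNKT2 cells, 7 in iNKT17 cells and 9 on the average, where 5.49%, 8.26%, 2.66% and 10.5% of all regions tested were higher. Lower were 0, 1, 0 and 0 Trac regions, against 3.93%, 8.16%, 1.99% and 9.21% of all regions tested. The median log2 change of the Trac regions was 0.03, 0.06, 0.35 and 0.17, and that of all regions tested lay between -0.02 and -0.00. With the replicate number as a block, and counting both directions, 12 of the 35 members passed in iNKT2 and 14 in iNKT17 cells. The share of all regions passing at any fold with the block was not counted. At 3-fold the block raised the calls over all regions from 923 to 976 in iNKT2 and from 147 to 165 in iNKT17 cells. Without the block, and counting both directions, 7 members passed in iNKT2 and 7 in iNKT17 cells. The counts fell to 2 in iNKT1 cells without C57BL/6 replicate 1 or Hivep3-/- replicate 2, to 4 in iNKT2 cells without either C57BL/6 replicate or Hivep3-/- replicate 2, and in iNKT17 cells to 1 without C57BL/6 replicate 1 and to 3 without Hivep3-/- replicate 2.

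**Figure D2:**
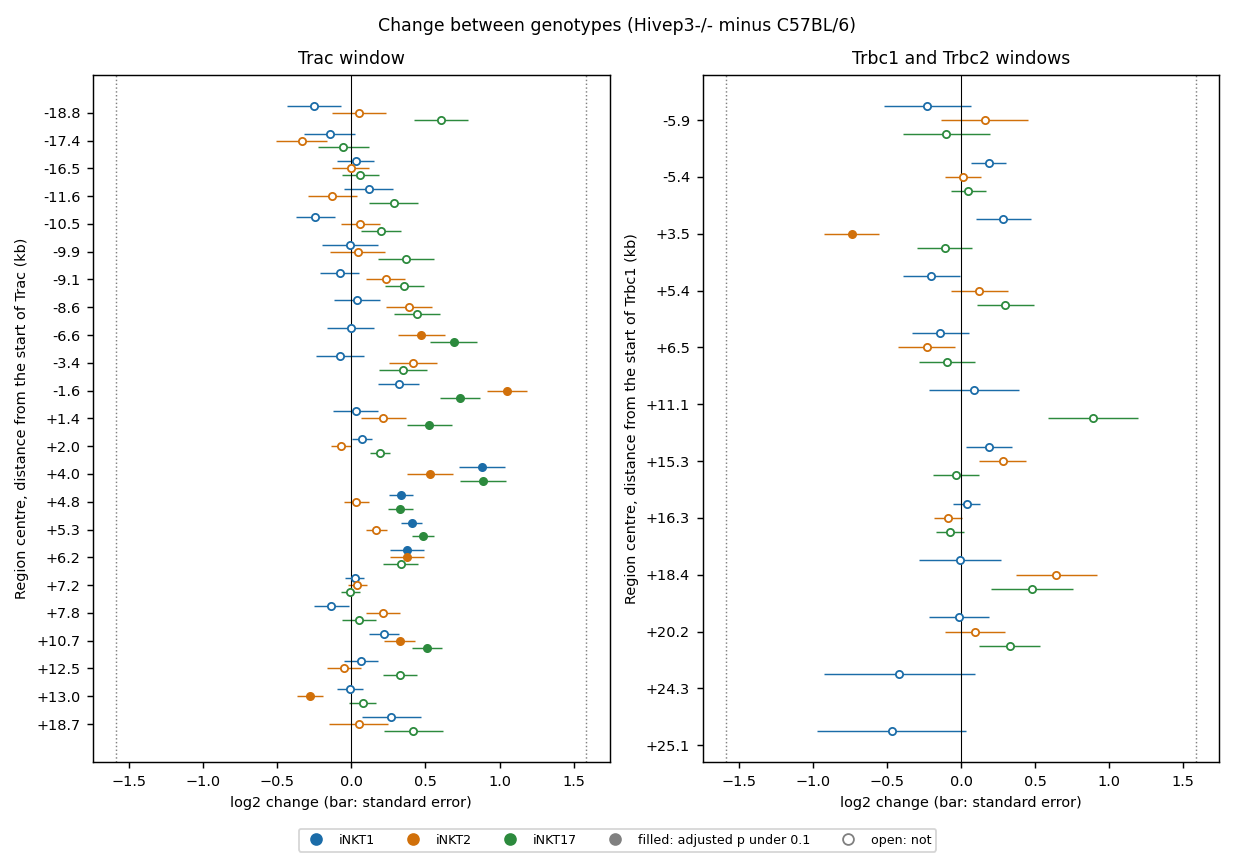
Change between genotypes (Hivep3-/- minus C57BL/6, log2) at each region around Trac (left) and around Trbc1 and Trbc2 (right), from 5′ at the top to 3′ at the bottom, with bars of 1 standard error. Filled points passed an adjusted p under 0.1, dotted lines mark 3-fold, and regions not tested in a subset have no point. The Trac 3′ flank, the first region below the gene, has filled points in all 3 subsets with changes of 0.53 to 0.89, while the open points of the Eα region, 4 lines below, lie between -0.01 and 0.04.

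The Trac 3′ flank was higher in all 3 subsets. In iNKT1 cells it had 41.5 and 41.7 insertions per kb in the C57BL/6 libraries and 70.1 and 83.9 in the Hivep3-/- libraries. In iNKT2 cells the values were 22.3 and 25.2 against 29.3 and 40.0, and in iNKT17 cells 33.1 and 36.1 against 58.1 and 70.5. Within each subset both Hivep3-/- libraries lay above both C57BL/6 libraries, while across subsets the genotypes overlapped, iNKT2 cells being lowest in both. The log2 change was 0.88 ± 0.16 (SE; limma adjusted p = 0.00455) in iNKT1, 0.53 ± 0.16 (adjusted p = 0.0435) in iNKT2 and 0.89 ± 0.16 (adjusted p = 0.0126) in iNKT17 cells. With the subsets averaged and their libraries taken as independent it was 0.77 ± 0.09 (limma adjusted p = 0.000191), a 1.70-fold difference. The call was lost in iNKT2 cells without C57BL/6 replicate 1 or Hivep3-/- replicate 2 (largest adjusted p 0.284) and in iNKT17 cells without C57BL/6 replicate 1 (adjusted p = 0.117).

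The region over Traj1 was the other large difference. It had 27.1 and 26.2 insertions per kb in C57BL/6 iNKT2 cells and 62.7 and 48.7 in Hivep3-/- iNKT2 cells. In iNKT17 cells it had 32.3 and 37.1 against 53.8 and 61.4, and in iNKT1 cells 40.5 and 35.1 against 47.3 and 46.8. All 6 Hivep3-/- libraries were above all 6 C57BL/6 libraries. The log2 change was 1.05 ± 0.14 (limma adjusted p = 0.000607) for iNKT2, 0.73 ± 0.14 (adjusted p = 0.0177) for iNKT17 and 0.32 ± 0.14 in iNKT1 cells, which did not pass (adjusted p = 0.238). Among the C57BL/6 subsets it was lower in iNKT2 than in iNKT1 and iNKT17 cells (adjusted p = 0.00832 and 0.0388), the latter call being lost without replicate 2 of C57BL/6 iNKT2 or iNKT17 cells (adjusted p up to 0.233), while in Hivep3-/- mice its mean was lowest in iNKT1 cells. The iNKT17 call was lost without C57BL/6 replicate 1 or Hivep3-/- replicate 2 (largest adjusted p 0.160).

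Between the 3′ flank and Eα lie 3 further regions with smaller differences. The region 1.41 kb beyond Trac (chr14:54225618-54226117) had 103 and 101 insertions per kb in C57BL/6 iNKT1 cells against 132 and 139 in Hivep3-/- cells, and 88.1 and 96.9 against 133 and 125 in iNKT17 cells. These log2 changes of 0.41 ± 0.07 (adjusted p = 0.00471) and 0.48 ± 0.07 (adjusted p = 0.00647) passed whichever library was left out, while 0.17 ± 0.07 in iNKT2 cells passed only with the replicate block (adjusted p = 0.161, with the block 0.0775). The region 849 bp beyond Trac was higher by 0.34 ± 0.08 in iNKT1 and 0.33 ± 0.08 in iNKT17 cells (adjusted p = 0.0275 and 0.0557), with 0.03 ± 0.08 in iNKT2 cells. These calls were lost without C57BL/6 replicate 1 or Hivep3-/- replicate 2 of the same subset (adjusted p up to 0.267 and 0.376). The region 2.26 kb beyond Trac (chr14:54226464-54226963) was higher by 0.37 ± 0.12 in both iNKT1 and iNKT2 cells (adjusted p = 0.0807 and 0.0568), and by 0.33 ± 0.12 in iNKT17 cells with the block only (adjusted p = 0.168, with the block 0.0572). Its iNKT1 call was lost without any 1 of the 4 iNKT1 libraries (adjusted p up to 0.549), and its iNKT2 call without replicate 2 of either genotype (adjusted p up to 0.336). With the subsets averaged all 3 passed, with log2 changes of 0.23 to 0.36, also without any single library.

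The Eα region did not differ detectably between the genotypes. It had 212 and 211 insertions per kb in C57BL/6 iNKT1 cells and 214 and 215 in Hivep3-/- iNKT1 cells. In iNKT2 cells the values were 204 and 208 against 214 and 210, and in iNKT17 cells 189 and 205 against 208 and 185. Both Hivep3-/- libraries lay slightly above both C57BL/6 libraries in iNKT1 and iNKT2 cells, while those of iNKT17 cells overlapped. Across subsets the genotypes overlapped, and the average log2 change was 0.02, with a 95% confidence interval of -0.06 to 0.10 (limma adjusted p = 0.809). The intron 2 peak had an average change of 0.07 (interval -0.02 to 0.15), and the Eβ region of -0.04 (interval -0.16 to 0.07). In iNKT17 cells alone, the intron 2 peak had 188 and 218 insertions per kb against 236 and 228, a log2 change of 0.20 that passed only with the replicate block (adjusted p = 0.159, with the block 0.0381).

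**Figure D3:**
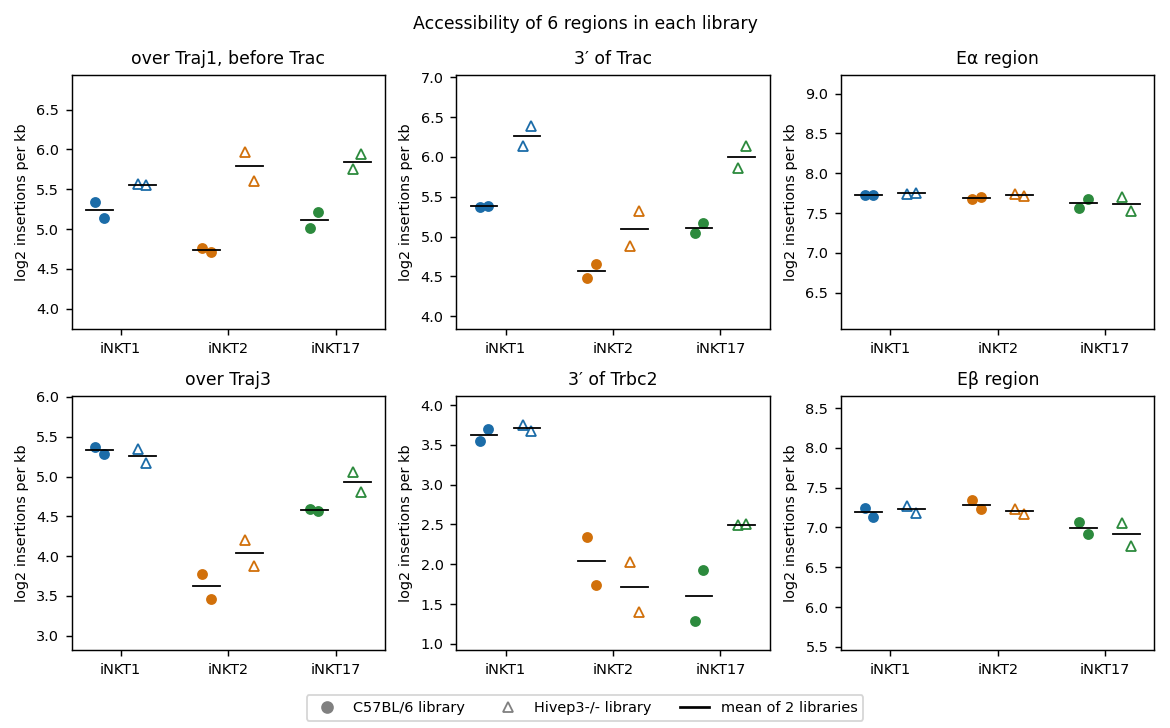
Accessibility of 6 regions in log2 insertions per kb by subset, with 1 point for each library (filled circles C57BL/6, open triangles Hivep3-/-) and a line at the mean of 2 libraries. In the top row the Traj1 region and the Trac 3′ flank lie higher in Hivep3-/- libraries within each subset and the Eα region stays within 7.5 to 7.8. In the bottom row the Traj3 region and the Trbc2 3′ flank separate iNKT1 from iNKT2 cells and the Eβ region lies near 7.1.

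Farther from the gene, the region 6.80 kb beyond Trac (chr14:54231003-54231502) was higher in Hivep3-/- iNKT2 and iNKT17 cells, by 0.33 ± 0.10 and 0.51 ± 0.10 on the log2 scale (adjusted p = 0.0585 and 0.0226). In iNKT1 cells its change of 0.22 passed with the replicate block only (adjusted p = 0.278, with the block 0.0650). In iNKT17 cells it had 130 and 144 insertions per kb in the C57BL/6 libraries and 195 and 196 in the Hivep3-/- libraries. The iNKT2 call was lost without either C57BL/6 iNKT2 library or Hivep3-/- iNKT2 replicate 2 (change down to 0.18, adjusted p up to 0.346) and the iNKT17 call without C57BL/6 iNKT17 replicate 1 (adjusted p = 0.203). The region over Traj5 (chr14:54213664-54214163) was higher in Hivep3-/- iNKT17 and iNKT2 cells, by 0.69 ± 0.16 and 0.47 ± 0.16 (adjusted p = 0.0408 and 0.0771), against -0.00 ± 0.16 in iNKT1 cells. Its iNKT17 call was lost without either C57BL/6 iNKT17 library or Hivep3-/- iNKT17 replicate 2 (adjusted p up to 0.224). Its iNKT2 call was lost without C57BL/6 iNKT1 replicate 1, either Hivep3-/- iNKT1 library, C57BL/6 iNKT2 replicate 2 or Hivep3-/- iNKT2 replicate 1, with a change down to 0.30 and an adjusted p up to 0.420. The region with exon 2 of Trac was higher in iNKT17 cells by 0.53 ± 0.15 (adjusted p = 0.0933), a call lost without any 1 library other than replicate 2 of C57BL/6 iNKT2 and iNKT17 cells, with a change down to 0.30 (adjusted p up to 0.549). Between Eα and Dad1, the gene next to Trac, the region at chr14:54233234-54233733 fell by 0.28 on the log2 scale in iNKT2 cells (adjusted p = 0.0603), the only Trac region that was lower in any of the 4 comparisons. That call was lost without C57BL/6 iNKT2 replicate 1 or Hivep3-/- iNKT2 replicate 2, with a change as small as -0.17 (adjusted p up to 0.396). The region over Traj17, next after Traj18, had log2 changes of -0.25, 0.05 and 0.60 in iNKT1, iNKT2 and iNKT17 cells of which the last passed only with the replicate block (adjusted p = 0.110, with the block 0.0342).

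Around Trbc1 and Trbc2, 1 region passed between the genotypes, in iNKT2 cells. The counts of regions higher in Hivep3-/- cells were 0 of the 12, 9, 10 and 12 tested in iNKT1, iNKT2 and iNKT17 cells and over the averaged subsets. Of all regions tested 5.49%, 8.26%, 2.66% and 10.5% were higher. Lower was 1 of the 9 in iNKT2 cells, close to the 8.16% of all regions tested, and 0 in the other comparisons. The region at chr6:41541479-41541978, between Trbc1 and the segment Trbd2, had 36.2 and 24.0 insertions per kb in C57BL/6 iNKT2 cells and 17.2 and 18.1 in Hivep3-/- iNKT2 cells, a log2 change of -0.74 ± 0.18 (adjusted p = 0.0216). Without C57BL/6 iNKT2 replicate 1, the highest of the iNKT2 libraries, it was -0.44 and did not pass. In iNKT1 cells the change was 0.29 and in iNKT17 cells -0.11, neither past the test. The region before Trbd1, with its κB-like letters, had 32.3 to 39.5 insertions per kb in the 4 iNKT2 libraries of both genotypes and an average change of 0.08 (interval -0.07 to 0.23). The Trbc2 3′ flank had 2.44 and 3.80 against 5.61 and 5.68 in iNKT17 cells, a log2 change of 0.89 ± 0.31 that passed only with the replicate block (adjusted p = 0.159, with the block 0.0913). The region at chr6:41556324-41556823, between Eβ and Trbv31, likewise passed with the block alone, with a change of 0.64 in iNKT2 cells (adjusted p = 0.162, with the block 0.0300) and of 0.37 over the averaged subsets (adjusted p = 0.147, with the block 0.0265).

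Interaction terms tested if the genotype difference was unequal across subsets. For iNKT1 against iNKT2 cells, 2 of the 35 members passed an adjusted p under 0.1, where 10.5% of all regions tested did. The change at the Traj1 region was smaller in iNKT1 than in iNKT2 cells (-0.73 ± 0.19 on the log2 scale, limma adjusted p = 0.0416), and that at the region between Trbc1 and Trbd2 was 1.02 ± 0.26 more positive (adjusted p = 0.034). For iNKT1 against iNKT17 and for iNKT2 against iNKT17 cells 0 members passed, against 3.64% and 3.29% of all regions tested, with unadjusted p under 0.05 at 5 and 7 members. No share of all regions was counted with the replicate block. With it the 3 counts were 7, 2 and 5, 3 regions passing in both comparisons with iNKT2 cells. These were the regions 849 bp (adjusted p = 0.0151 and 0.0322) and 1.41 kb (0.0987 and 0.0541) beyond Trac and the one at chr14:54233234-54233733 (0.0743 and 0.0394). The count of 2 fell to 0 without Hivep3-/- iNKT1 replicate 1, and to 1 without C57BL/6 iNKT1 replicate 1 or 2, Hivep3-/- iNKT1 replicate 2, C57BL/6 iNKT2 replicate 1 or 2 or Hivep3-/- iNKT2 replicate 1.

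Among the subsets of C57BL/6 mice, more members were higher in iNKT1 cells than lower, and the largest fold differences lay at weak regions. At the 3-fold threshold, 4 of the 35 members were higher in iNKT1 than in iNKT2 cells and 3 were higher in iNKT1 than in iNKT17 cells. Between iNKT2 and iNKT17 cells 0 of the 32 tested passed it. Of all regions tested, 16%, 20.5% and 16.2% were called in either direction, so members past 3-fold were no more frequent than regions at large. With no fold threshold, 8 Trac regions were higher in iNKT1 than in iNKT2 cells and 2 lower, and 7 beta regions were higher and 1 lower, against 27.3% higher and 27.9% lower of all regions tested. Against iNKT17 cells, 13 Trac regions were higher in iNKT1 cells and 2 lower, and 7 beta regions higher and 1 lower, where 30.2% of all regions tested were higher and 28.2% lower. Between iNKT2 and iNKT17 cells 9 Trac regions were higher and 6 lower in iNKT2 cells, and 2 beta regions each way, against 29% higher and 23.3% lower of all. Within a genotype the 3 comparisons share libraries. The beta regions past 3-fold were tested only because of their iNKT1 means, so they could count only as higher in iNKT1 cells.

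**Figure D4:**
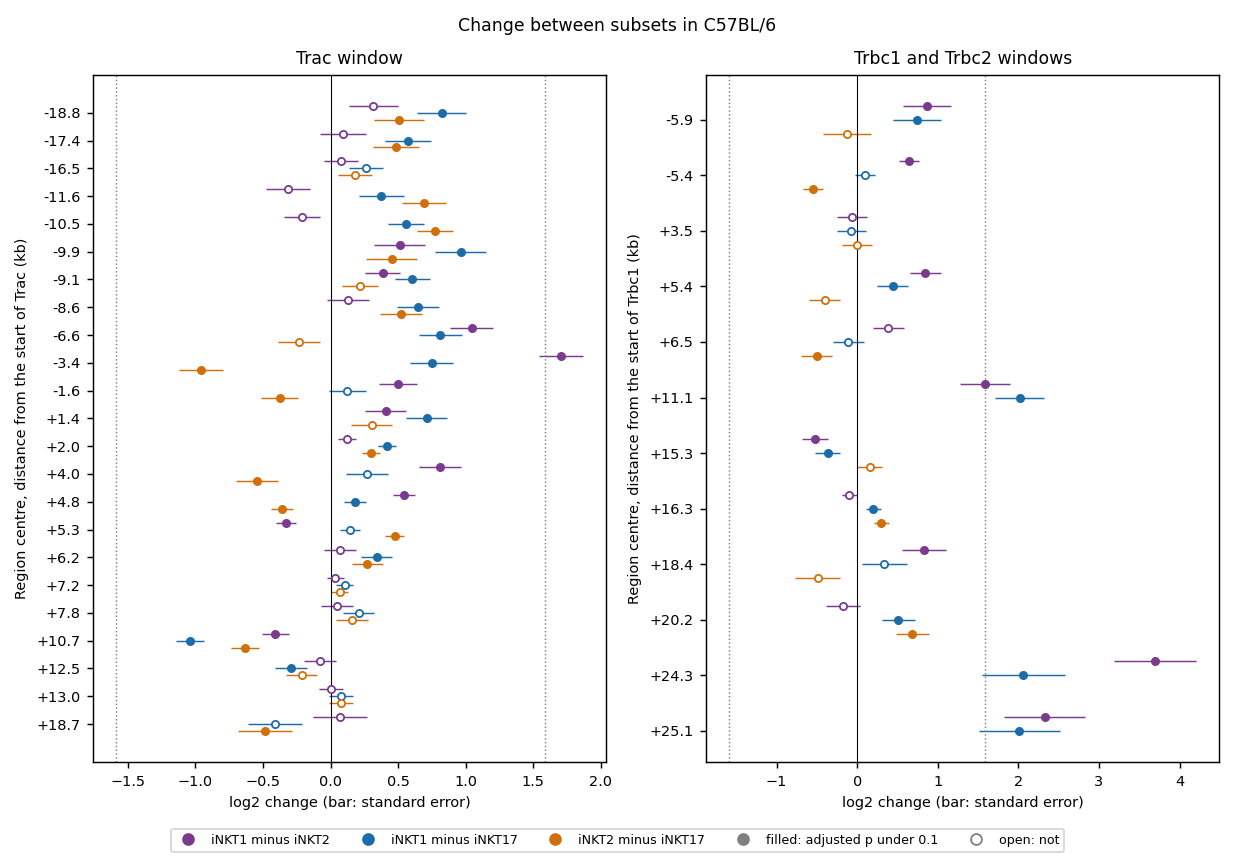
Change between subsets in C57BL/6 mice (log2) at each region around Trac (left) and around Trbc1 and Trbc2 (right), with bars of 1 standard error, laid out as in the plot of genotype changes. Filled points passed an adjusted p under 0.1 and dotted lines mark 3-fold. The region over Traj3 reaches 1.71 for iNKT1 minus iNKT2, the region 6.80 kb beyond Trac reaches -1.04 for iNKT1 minus iNKT17, and the 3 beta regions past 3-fold all lie beyond Trbc2.

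The region over Traj3 (chr14:54216828-54217327) had 41.3 and 39.0 insertions per kb in C57BL/6 iNKT1, 13.7 and 11.0 in iNKT2 and 24.1 and 23.8 in iNKT17 libraries, with no overlap between subsets. It was higher in iNKT1 than in iNKT2 cells by 1.71 ± 0.16 (adjusted p = 2.16e-06), the only Trac member past 3-fold, and in Hivep3-/- mice by 1.22 ± 0.16 (adjusted p = 2.91e-05). Between iNKT2 and iNKT17 cells it had the largest change of the 32 members tested in C57BL/6 mice, -0.96 ± 0.16 (adjusted p = 0.000247). Between genotypes its changes of 0.41 in iNKT2 cells and 0.23 over the averaged subsets passed with the replicate block only (adjusted p = 0.122 and 0.125, with the block 0.0292 and 0.0323). Without C57BL/6 iNKT2 replicate 2 the 3-fold calls of C57BL/6 iNKT1 against iNKT2 cells fell from 4 to 2. The region 6.80 kb beyond Trac had its lowest values in iNKT1 cells, with 62.1 and 71.8 insertions per kb in C57BL/6 iNKT1, 89.2 and 87.9 in iNKT2 and 130 and 144 in iNKT17 libraries. It was lower in iNKT1 than in iNKT17 cells, with a log2 change of -1.04 ± 0.10 (adjusted p = 1.70e-06) in C57BL/6 and -1.33 ± 0.10 (adjusted p = 2.09e-07) in Hivep3-/- mice. The region 1.41 kb beyond Trac was lower in iNKT1 than in iNKT2 cells (-0.33 ± 0.07, adjusted p = 0.00185), whereas its neighbours 87 and 849 bp beyond the gene were higher (0.81 ± 0.16 and 0.54 ± 0.08, adjusted p = 0.000691 and 0.000111). The intron 2 peak was lowest in iNKT17 cells, with iNKT1 and iNKT2 cells above it by 0.42 ± 0.07 and 0.30 ± 0.07 (adjusted p = 0.000135 and 0.00242), and with the block iNKT1 cells also above iNKT2 cells by 0.12 (adjusted p = 0.160, with the block 0.0546). The Trac 3′ flank was likewise above iNKT17 cells in iNKT1 cells with the block only, by 0.27 in C57BL/6 and 0.26 in Hivep3-/- mice (adjusted p = 0.166 and 0.184, with the block 0.0234 and 0.0288). The Eα region passed in none of the 3 comparisons of C57BL/6 subsets, with log2 changes of 0.04, 0.10 and 0.07, but with the replicate block it was higher in iNKT1 than in iNKT17 cells (adjusted p = 0.194, with the block 0.0964). In Hivep3-/- mice the block likewise gave it changes past the test against iNKT17 cells of 0.13 for iNKT1 and 0.11 for iNKT2 cells (adjusted p = 0.100 and 0.161, with the block 0.0366 and 0.0722).

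In the beta locus the regions of the 3-fold calls were weak and lay beyond Trbc2. Among C57BL/6 cells only iNKT1 cells reached the mean of 5 insertions per kb there that the test needed. These regions could therefore be called only as higher in iNKT1 cells, and were not tested between C57BL/6 iNKT2 and iNKT17 cells. The Trbc2 3′ flank had 11.7 and 13.0 insertions per kb in C57BL/6 iNKT1, 5.06 and 3.34 in iNKT2 and 2.44 and 3.80 in iNKT17 libraries. It was higher in iNKT1 cells by 1.59 ± 0.31 against iNKT2 and 2.02 ± 0.31 against iNKT17 cells on the log2 scale (adjusted p = 0.000733 and 7.85e-05). The other two, beyond Trbv31 at chr6:41562236-41562735 and chr6:41563057-41563556, had 6.27 to 15.2 insertions per kb in the C57BL/6 iNKT1 libraries and 0.33 to 3.45 in those of iNKT2 and iNKT17 cells. The first of them had the largest change of both iNKT1 comparisons, 3.69 ± 0.51 against iNKT2 and 2.06 ± 0.51 against iNKT17 cells (adjusted p = 5.36e-05 and 0.00369). At such low levels an added pseudocount lowers the fold. With a pseudocount of 5, 0 members were past 3-fold in any comparison, and the second of these regions has 420 of its 500 bases masked as repeats. The Eβ region was lower in iNKT17 than in iNKT1 and iNKT2 cells, by 0.20 ± 0.09 and 0.30 ± 0.09 (adjusted p = 0.092 and 0.0183). The call against iNKT1 cells was lost without any 1 library other than C57BL/6 iNKT1 replicate 2, C57BL/6 iNKT17 replicate 1 and the Hivep3-/- iNKT17 libraries, with a difference down to 0.12 (adjusted p up to 0.427). The call against iNKT2 cells was lost without C57BL/6 iNKT2 replicate 1 or C57BL/6 iNKT17 replicate 2 (adjusted p up to 0.155). The region before Trbd1 was lower in iNKT2 cells, with 38.6 and 32.5 insertions per kb against 55.3 and 55.4 in iNKT1 and 49.7 and 54.0 in iNKT17 libraries (adjusted p = 0.000609 and 0.00200).

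In Hivep3-/- mice 3 beta regions passed the 3-fold threshold between iNKT1 and iNKT2 cells, 1 between iNKT1 and iNKT17 cells and 0 between iNKT2 and iNKT17 cells, against 17.3%, 19.3% and 15.6% of all regions tested. They were the Trbc2 3′ flank and the regions beyond Trbv31, all higher in iNKT1 cells. Each of these calls met the filter on the mean only through iNKT1 cells, so its direction was set by the filter. The region at chr6:41562236-41562735 again changed most between iNKT1 cells and the others, by 2.95 against iNKT2 and 1.83 against iNKT17 cells (adjusted p = 0.000281 and 0.00827). With no fold threshold 18, 13 and 21 members differed in either direction, against 59%, 56.9% and 53.9% of all regions tested. Without Hivep3-/- iNKT1 replicate 2 the count for iNKT1 against iNKT17 cells was 7. The region before Trbd1 was again lower in iNKT2 cells, with a log2 change of 0.82 ± 0.12 for iNKT1 against iNKT2 cells (adjusted p = 7.58e-05). The Trac 3′ flank was lower in iNKT2 than in iNKT17 cells, with a log2 change of -0.90 ± 0.16 (adjusted p = 0.000313), the largest change of that comparison among the 33 members tested.

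Summing the regions of a window gave 1 level for each gene and library. For Trac the sums were highest in Hivep3-/- iNKT1 cells (1686 ± 24.7 insertions per kb, SD, n = 2), followed by Hivep3-/- iNKT17 (1662 ± 29.6), C57BL/6 iNKT1 (1531 ± 15.3), Hivep3-/- iNKT2 (1504 ± 28.1), C57BL/6 iNKT2 (1398 ± 16.2) and C57BL/6 iNKT17 cells (1349 ± 82.6). The libraries of the first and the next group in this order overlapped, as did those of the C57BL/6 iNKT1 and Hivep3-/- iNKT2 groups and of the last pair. The Trac sum was higher in Hivep3-/- cells by 0.14 ± 0.04 on the log2 scale in iNKT1, 0.11 ± 0.04 in iNKT2, 0.30 ± 0.04 in iNKT17 cells and 0.18 ± 0.02 over the averaged subsets (adjusted p = 0.0393, 0.0872, 0.00139 and 0.000159 over 30108 genes). Of all genes 10.8%, 17.5%, 6.53% and 21% passed in these comparisons. The iNKT1 call was lost without any 1 of the 4 iNKT1 libraries (adjusted p up to 0.247) and the iNKT2 call without any 1 of the iNKT1 or iNKT2 libraries (adjusted p up to 0.306), while the iNKT17 and average calls held without each of the 12. The change was smaller in iNKT2 than in iNKT17 cells (interaction -0.20 ± 0.05, adjusted p = 0.0816), where 3.88% of all genes passed. The interaction of iNKT1 with iNKT17 cells, -0.16 ± 0.05, passed with the replicate block only (adjusted p = 0.136, with the block 0.0245).

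The sums of the beta genes did not separate the genotypes. The Trbc1 sum had group means between 340 and 390 insertions per kb and the Trbc2 sum between 343 and 405, highest in Hivep3-/- iNKT1 cells for both, and the libraries of every neighbouring pair of groups overlapped in both orders. The genotype changes lay between -0.04 and 0.06 on the log2 scale, with confidence intervals within -0.26 to 0.27. Among C57BL/6 subsets the Trac sum was higher in iNKT1 than in iNKT2 and iNKT17 cells (0.13 ± 0.04 and 0.18 ± 0.04, adjusted p = 0.0109 and 0.00109), with 0.05 ± 0.04 between iNKT2 and iNKT17 cells, where 51.8%, 54.8% and 49.5% of all genes passed. With the replicate block Trbc1 and Trbc2 were also higher in iNKT1 than in iNKT2 cells (adjusted p = 0.413 and 0.201, with the block 0.0611 and 0.00391) and than in iNKT17 cells (adjusted p = 0.266 and 0.135, with the block 0.0148 and 0.00109). In Hivep3-/- mice the Trac sum was lower in iNKT2 than in iNKT17 cells (-0.14 ± 0.04, adjusted p = 0.00654), while iNKT1 and iNKT17 cells differed by 0.02 ± 0.04 (adjusted p = 0.685). Between iNKT1 and iNKT2 cells of that genotype Trac and Trbc2 passed (0.17 ± 0.04 and 0.24 ± 0.10, adjusted p = 0.00256 and 0.0649), Trbc2 not without Hivep3-/- iNKT1 replicate 1 or Hivep3-/- iNKT2 replicate 2 (adjusted p up to 0.291). Of all genes 54.6%, 53.6% and 50.9% passed in iNKT1 against iNKT2, iNKT1 against iNKT17 and iNKT2 against iNKT17 cells of that genotype. The block added Trbc1 for iNKT1 against iNKT2 cells (adjusted p = 0.109, with the block 0.000862), and Trbc1 and Trbc2 for iNKT1 against iNKT17 cells (adjusted p = 0.143 and 0.101, with the block 0.00195 and 0.000431).

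**Figure D5:**
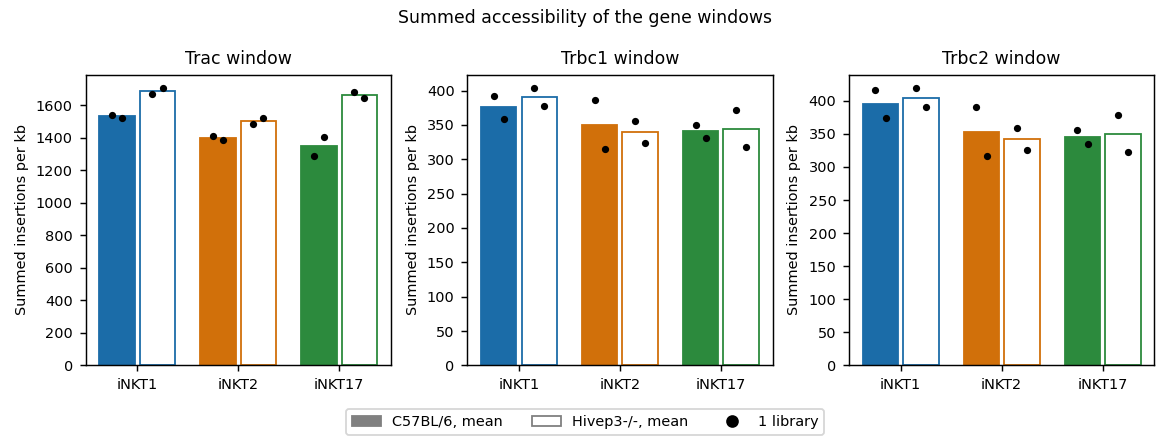
Summed accessibility of the windows of Trac, Trbc1 and Trbc2 in insertions per kb by subset, with bars at the mean of 2 libraries (filled C57BL/6, open Hivep3-/-) and points for the libraries. The open Trac bars are 1504 to 1686 and the filled ones 1349 to 1531, and the beta bars stay between 340 and 405.

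Motif letters were counted in all 500 bases of each region. The cAMP response element was present in 1 of the 35 members, the Eα region, and in 1.55% of all regions. Runx letters were in 16 members, Ets in 12, TCF/LEF in 12 and GATA in 10, against 40.2%, 58.5%, 30.5% and 20.6% of all regions. The short E-box letters CANNTG were in 31 members and 90.3% of all regions. The κB-like letters GGNNTTTCC were in 5 members and 10.5% of all regions, and the heptamer in 9 members and 14.7%. Of the regions that differed between genotypes, the one 849 bp beyond Trac holds κB-like letters, at position 268, while the Trac 3′ flank and the Traj1 region, printed above, show a single Ets match each in the stretch given. A match is only a run of letters in the window and not a site of binding.

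Other genes of TCR assembly and signalling were taken as a list of 13, of which 11 had regions within 10 kb, 78 regions in all. With the subsets averaged 49 of these were higher and 0 lower in Hivep3-/- cells, where 10.5% of all regions tested were higher and 9.21% lower. Around Cd247, which encodes the zeta chain that signals for the TCR, 29 of 33 regions were higher, with a median log2 change of 1.24 over the 33. The study itself singled out this gene in these libraries, so its direction is not independent evidence. Without Cd247, 20 of 45 regions were higher and 0 lower, among them 13 of 14 around Trgc4 and 4 of 4 around Trgc2, constant genes of the gamma chain. The median log2 change was 0.57 around each of these genes. In iNKT1, iNKT2 and iNKT17 cells alone, 7 of 14, 3 of 13 and 9 of 14 tested were higher around Trgc4. Around Trgc2 the counts were 1 of 3, 0 of 2 and 0 of 3. Of all regions tested 5.49%, 8.26% and 2.66% were higher in these subsets. With the subsets averaged, 1 of 8 regions was higher around each of Cd3d and Cd3e, chains that bind the TCR, a share close to that of all regions. Around Cd3g it was 0 of 9, the 3 windows sharing regions.

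The subset labels were checked by promoter regions. Il23r was open in iNKT17 cells, with a group mean of 52.3 insertions per kb in C57BL/6 against at most 0.75 in iNKT1 and iNKT2 groups, and Tbx21, a transcription factor of iNKT1 cells, had 90.7 and 95.7 in the iNKT1 groups against 33.1 to 55.9 elsewhere. Klrb1c, which encodes NK1.1, had 48.8 and 39.4 in the iNKT1 groups against 8.28 to 22.0 elsewhere, but Il2rb, the interleukin receptor chain of the same list, was highest in the iNKT17 groups, with 583 and 550 against 480 and 482 in iNKT1 and 412 and 436 in iNKT2 cells. Summed over the 3 iNKT1 markers, C57BL/6 iNKT1 cells had 619, iNKT17 cells 634 and iNKT2 cells 477, so the list as a whole did not set iNKT1 apart from iNKT17 cells. The table holds no promoter region of Rag1, Rag2, Dntt or Cd8b1, which mark double-positive thymocytes, nor of Trdc, Cd79a, Csf1r, Lyz2 or Itgam, which mark gamma-delta, B and myeloid cells. The other markers of those cells, Trgc1, Sox13, Pax5, Ebf1 and Spi1, had 1 promoter region each, with group means from 2.53 to 39.2 insertions per kb. Summed over promoters, the iNKT2 markers Izumo1r, Il4 and Ccr7 had 272 insertions per kb in C57BL/6 and 208 in Hivep3-/- iNKT1 cells. There Izumo1r had 112 against 77.9 and Il4 82.1 against 46.4, while Ccr7 went the other way, with 78.1 against 83.7. The sums were 457 and 428 in iNKT2 and 174 and 179 in iNKT17 cells. The part of such shifts in the TCR results was not tested. The promoter of Hivep3 had log2 values of 6.36 to 6.72 in all libraries, so the table does not check the deletion.

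The promoters most like the TCR regions over the 12 libraries, by Pearson correlation of log2 values among 14046 promoter regions, were those of Apobec3, Prrg4, H2-Q6, Sipa1 and Tef for the intron 2 peak of Trac (r = 0.961 to 0.940). For the region nearest to Trbc1, that before Trbd2, they were Eif3i with Tmem234, Pola2, Mblac1, Mrps18b with Ppp1r10, and Galk1 (r = 0.942 to 0.913). For the Trbc2 3′ flank they were Tapbpl with Vamp1, Baz1a, Mta3, Slc35e1 and Arpc1b (r = 0.960 to 0.953). The libraries share subsets, genotypes and normalization, and these are descriptions of the 12 libraries.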

How the data were processed

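ATAC-seq libraries of sorted thymic iNKT1, iNKT2 and iNKT17 cells were analysed, 2 for each subset and genotype, as grouped by the labels. According to the study's methods, the authors trimmed reads to 50 bp (Trimmomatic 0.39), mapped them to mm10 with the ENCODE ATAC pipeline, merged the peaks of all replicates into regions of 500 bp, counted insertions and normalized them with voom. The deposited values are log2 insertions per kb, and linear values here are powers of 2 of them. The summed linear values are nearly equal in all libraries, so the deposited log2 table holds no sequencing depth and no count model or interval for counting error was possible. All value columns could be assigned to a sample (0 left out).

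limma 3.58.1 in R 4.3.3 was fitted to all 63309 regions with 1 mean per group and a variance trend (6 residual and 7.17 prior degrees of freedom). A region was tested where its linear mean was at least 5 in a compared group, with Benjamini-Hochberg adjustment over all tested regions. Calls needed an adjusted p under 0.1 and, where stated, 3-fold. Window sums added all regions within 20 kb of each gene, and were tested over all genes. Confidence intervals are at 95% and ± is the standard error unless SD is given. The procedure was run on simulated data with noise independent between libraries and planted changes larger than the genotype changes reported here. That run therefore does not bear on how reliably changes of the size seen here are called. Motifs and sequences were read from the RefSeq GRCm38.p6 genome, the build of mm10, with pysam 0.24.0, and tables were handled in Python 3.11.15 with pandas 2.3.3 and numpy 2.4.6.

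Same-numbered libraries deviated together from their group means, with correlations of 0.120 to 0.167 in 6 pairs of the same genotype and 0.113 to 0.171 in 3 pairs of the same subset. The main fit has no term for these numbers. An alternative fit used them as a replicate block, a reading taken from the data and the numbers in the titles. Values with the replicate block are given for some of the calls it changed. Between genotypes the block used the same term for both, although their libraries come from different mice, so it does not pair by mouse. Alternatives were other filters, pseudocounts of 1 and 5, repeated quantile normalization, no variance trend, windows of 10 and 50 kb and leaving out each library. Regions named singly were those nearest to each gene's start, the highest of each window, those between Trac and Dad1 and between Trbc2 and Trbv31, those over J segments or next to D segments, and those called or most changed in a comparison. The members and lists were chosen with earlier results of these data known. Some markers of the cell type lists are not reported here.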

Additional observations from a re-analysis of the deposited data

Results flagged for a closer look

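The change between genotypes differed between subsets by the interaction test in 3 instances. For iNKT1 against iNKT2 cells 1 of the 35 members passed in each direction, where 10.5% of all regions tested passed in either. Such differences were thus no more frequent among the members than among regions at large. At the region between Trbc1 and Trbd2 the log2 change in iNKT1 cells minus that in iNKT2 cells was 1.02 (limma adjusted p = 0.034), and it lost the call without 3 of the 12 libraries. At the Traj1 region this difference was -0.73 (adjusted p = 0.0416), and it lost the call without 5 of the 12 libraries. For the summed Trac window the change in iNKT2 cells minus that in iNKT17 cells was -0.20 (adjusted p = 0.0816), where 3.88% of all genes passed.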

How the results depend on the processing

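No passing change reversed direction under the alternatives for which this was checked. For single regions these were the pseudocounts, leaving out each library and the replicate block, which leaves the log2 change as it is. Passing window sums were also checked with other windows, repeated quantile normalization and no variance trend. The direction of single regions under those settings and other filters, and that of the window sum interactions, was not checked. Without the variance trend the members passing at any fold between genotypes were 2 instead of 4 in iNKT1, 3 instead of 7 in iNKT2 and 4 instead of 7 in iNKT17 cells, and the genes of 3 with a passing window sum were 0 instead of 1 in iNKT1 cells, 0 instead of 1 in iNKT2 cells and 1 instead of 2 for Hivep3-/- iNKT1 against iNKT2 cells. With the replicate block, which adds terms for the replicate number, the members passing were 12 in iNKT2 and 14 in iNKT17 cells. The interactions were 7, 2 and 5 instead of 2, 0 and 0. Genes with a passing window sum were 3 for C57BL/6 iNKT1 against iNKT2 and against iNKT17 cells (1 each without it). They were 2 for Hivep3-/- iNKT1 against iNKT17 cells (0 without it). No share of all regions or genes was counted with the block. A pseudocount of 5 left 0 of the 3-fold calls of iNKT1 against iNKT2 and iNKT17 cells in both genotypes (4, 3, 3 and 1 without it) and gave 1 interaction of iNKT1 with iNKT17 cells. A pseudocount of 1, or a filter on the mean of all libraries, left 0 of 1 for Hivep3-/- iNKT1 against iNKT17 cells, and no filter gave 1 instead of 0 for C57BL/6 iNKT2 against iNKT17 cells. Windows of 50 kb left 0 genes for the genotypes in iNKT2 cells, and windows of 10 kb gave 2 for C57BL/6 iNKT1 against iNKT2, 1 for C57BL/6 iNKT2 against iNKT17 and 2 for Hivep3-/- iNKT2 against iNKT17 cells. The cause of these differences was not tested.

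Leaving out each library gave 2 to 4 members between genotypes in iNKT1, 4 to 8 in iNKT2 and 1 to 8 in iNKT17 cells, 2 to 4 of the 3-fold calls of C57BL/6 iNKT1 against iNKT2 cells, 7 to 15 members for Hivep3-/- iNKT1 against iNKT17 cells, and 0 to 3, 0 to 1 and 0 to 1 interactions. Genes with a passing window sum were 0 to 1 between genotypes in iNKT1 and in iNKT2 cells, 1 to 3, 1 to 2 and 0 to 1 in the 3 comparisons of C57BL/6 subsets, and 1 to 3 and 0 to 2 for Hivep3-/- iNKT1 against iNKT2 and iNKT17 cells. With 2 libraries a group, a group left with 1 library was assumed to vary like the others. Depth per library could not be read from the values.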
